A study of Mus musculus with 36 samples.

Results

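KRAB embryos were compared with NI embryos at the 2-cell stage across all genes, using the 6 libraries labelled KRAB and the 4 labelled NI out of the 36 mouse embryo libraries in the series. The members were chosen by their labels of treatment and developmental stage. RNA was amplified with SMART-seq v4, a kit for very small inputs, from pools of 4 to 5 embryos. A protocol text that all samples share says that embryos were injected and cultured. The labels name neither the construct behind KRAB, nor its target, nor a strain. They do not spell out NI, so whether NI embryos received an injection is open. The 7 Ctrl libraries of the same stage, a further group whose injection is not described, entered the fit. The estimate of spread therefore rests on them too. The series' title concerns LINE-1, a family of retrotransposons, and the accessibility of chromatin. LINE-1 transcripts were not analysed here.

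At the 2-cell stage the mouse embryo passes from messages stored in the egg to transcripts of its own genome, a transition called zygotic genome activation, while the stored messages are degraded. KRAB is a repressor domain found in many zinc finger proteins. It recruits the co-repressor Trim28, which brings the H3K9 methyltransferase Setdb1 and heterochromatin proteins to the site, and this pathway is known for silencing retrotransposons in early embryos and embryonic stem cells.

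Of 23845 genes in the table, 11799 were tested and 0 were called between KRAB and NI (0% of the genes tested), with a smallest adjusted p of 0.998 by edgeR's quasi-likelihood test with Benjamini-Hochberg adjustment. An unadjusted p under 0.05 was found for 368 genes (3.12%), fewer than the 589.95 that a uniform spread of p-values would give. They comprised 137 higher in KRAB (1.16%) and 231 lower in KRAB (1.96%). DESeq2 and limma-voom also called 0 genes. With limma-voom and quality weights 914 genes had an unadjusted p under 0.05, more than a uniform spread would give. Of them 564 were higher in KRAB and 350 lower, so the shortfall and the balance of directions depended on the tool. With edgeR the unadjusted count was 234 without KRAB replicate 2 and 623 without NI replicate 2. Those higher in KRAB numbered 57 without NI replicate 1, 81 without KRAB replicate 2 and 248 without NI replicate 2. Those lower in KRAB numbered 153 without KRAB replicate 2 and 375 without NI replicate 2. No label names separate cultures or animals, so these p-values measure the spread between pools, which may be technical.

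**Figure D1:**
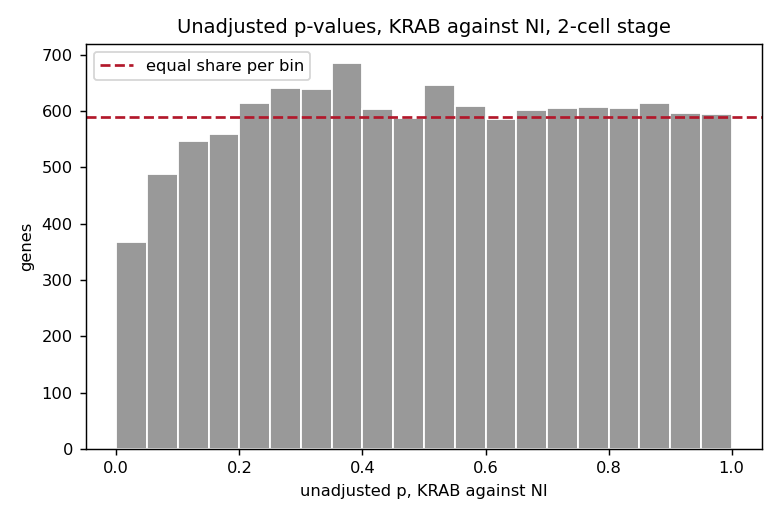
Histogram of the unadjusted p-values of KRAB against NI over 11799 genes (x axis, p in bins of 0.05; y axis, number of genes), with a dashed line at an equal share per bin. The first bin, with 368 genes, lies below the line and is the lowest of the histogram.

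Libraries of both groups were of similar depth and complexity. Total counts were 1296375 to 4336022 in KRAB and 1376619 to 4962006 in NI. Genes with at least 1 count numbered 14331.8 ± 950 in KRAB (SD, n = 6) and 14340.2 ± 1179 in NI (n = 4), and the exact permutation test over 210 splits, two-sided, gave p = 0.981 for the difference. Ccdc82, the gene with the largest share of counts summed over the 10 libraries, took 8.44% ± 4.40 in KRAB and 4.50% ± 2.92 in NI (exact permutation p = 0.157, Benjamini-Hochberg adjusted p = 0.471 over 3 library measures).

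Pairs of libraries were about as alike between the labels as within them. Spearman's rho over the tested genes had a median of 0.818 among the 15 KRAB pairs and 0.754 among the 6 NI pairs, and it was 0.815 among the 24 pairs of a KRAB with an NI library. KRAB replicates 2, 4 and 6 resembled each other, as did KRAB replicates 3 and 5 (0.930) and NI replicates 2 and 4 (0.923). The closest library to NI replicate 1 was KRAB replicate 3 (0.878), and the closest to KRAB replicate 1 was NI replicate 2 (0.886). NI replicate 3 reached no more than 0.805, with NI replicate 1. Among the 21 pairs of Ctrl libraries rho ran from 0.506 to 0.967, with a median of 0.725. Where leaving out NI replicates 1 and 3 turned the direction of a gene or list given below, or moved a list's median by more than 1.5 times, that value is printed beside it. The alternative was chosen after seeing the data.

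**Figure D2:**
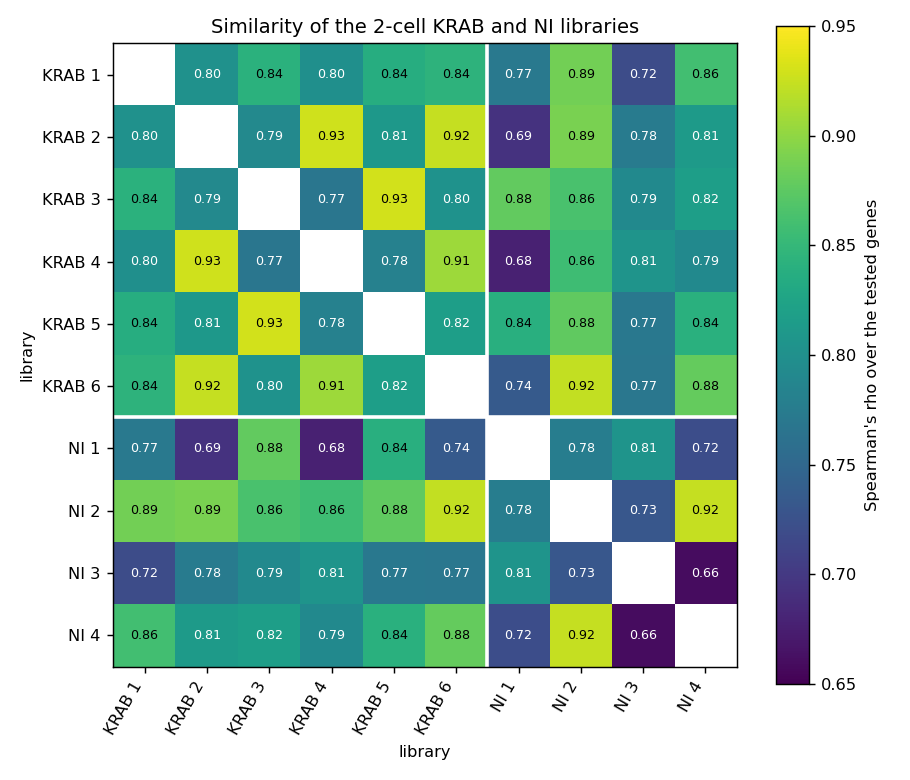
Spearman's rho between the 6 KRAB and 4 NI libraries of the 2-cell stage over the tested genes, with KRAB libraries first on both axes and white lines between the groups. Values run from 0.660 between NI 3 and NI 4 to 0.930 between KRAB 3 and KRAB 5, and high values occur on both sides of the lines.

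Some genes were measured precisely enough to bound a difference. The 95% interval of the log2 fold change lay within a 2-fold change in either direction for 280 genes (2.37%) and within a 4-fold change for 6448 (54.6%). Among the 1900 genes with a mean of at least 100 CPM (counts relative to the TMM-scaled library total), 61 lay within 2-fold and 1120 (58.9%) within 4-fold. Of the genes within 2-fold, 3 are given as examples, chosen after their values were seen. That their levels are close follows from that choice. Cdca8, borealin of the chromosomal passenger complex, had 376.2, 593.6 and 676.4 CPM (lowest, median and highest) in KRAB, against 868.5, 605.4, 606.5 and 471.6 CPM in NI replicates 1 to 4. The groups overlapped and the log2 fold change was -0.16 (95% interval -0.996 to 0.67), and 0.075 without NI replicates 1 and 3. Smc6, a subunit of the SMC5/6 complex, averaged 271 ± 74.3 CPM in KRAB and 301 ± 86.5 CPM in NI (log2 fold change -0.15, interval -0.94 to 0.65). Arid1a, a subunit of BAF chromatin remodellers, averaged 159 ± 39.1 CPM in KRAB and 179 ± 49.9 CPM in NI (-0.17, interval -0.93 to 0.59). For these genes a difference beyond 2-fold lies outside the interval, and smaller ones could not be resolved. The median half-width of the interval over all genes was 1.42 on the log2 scale.

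Groups did not overlap at 78 genes (0.661%), 45 with every KRAB library above every NI library (0.381%) and 33 with every KRAB library below (0.28%). The 20 genes described next have the 10 smallest p-values in each direction among genes with a mean of at least 10 CPM in KRAB or NI and a symbol other than a gene-model name. Each has an adjusted p of 0.998, so none passed.

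Among these genes higher in KRAB, the smallest p belonged to Tmem254a, a transmembrane protein gene on chromosome 14 (25923300 to 25927672 in GRCm38, minus strand). It had 76.5, 154.7 and 200.2 CPM (lowest, median and highest) in KRAB, against 34.0, 51.6, 22.4 and 62.1 CPM in NI replicates 1 to 4. The groups did not overlap, and the log2 fold change was 1.80 ± 0.49 (SE). Of its 31-base words, 72.9% also occur in Tmem254b, so the authors' counting could divide reads between the 2 genes. In Ctrl, Tmem254a averaged 64.7 ± 29.6 CPM (SD, n = 7).

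Hexim2 encodes an inhibitor of the elongation kinase P-TEFb and lies on chromosome 11 (103132429 to 103139876). It had 7.54, 15.3 and 21.9 CPM (lowest, median and highest) in KRAB, against 2.49, 5.62, 6.52 and 4.77 CPM in NI replicates 1 to 4. The groups did not overlap, with a log2 fold change of 1.60 ± 0.52, and Ctrl averaged 15.3 ± 8.19 CPM, close to the KRAB mean of 14.9 ± 4.74.

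Cdca3, a cell cycle gene whose product triggers entry into mitosis (chromosome 6, 124829547 to 124833701), was the most abundant of the 10 higher genes. It had 153.1, 251.4 and 287.4 CPM (lowest, median and highest) in KRAB, against 79.6, 142.1, 147.2 and 73.9 CPM in NI replicates 1 to 4. KRAB replicate 6 lay just above the highest NI library, and the log2 fold change was 1.08 ± 0.41. Fkbpl, an immunophilin-like protein (chromosome 17, 34644764 to 34646324), averaged 37.6 ± 11.1 CPM in KRAB and 15.8 ± 5.96 CPM in NI (1.23 ± 0.44). Mrpl24, a protein of the mitochondrial ribosome (chromosome 3, 87919506 to 87923672), averaged 40.1 ± 19.05 CPM in KRAB and 12.8 ± 3.24 CPM in NI (1.63 ± 0.59). Neither Fkbpl nor Mrpl24 overlapped between KRAB and NI, and their Ctrl means of 31.7 ± 12.1 and 55.97 ± 38.3 CPM lay nearer to KRAB.

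Slc30a2, a zinc transporter (chromosome 4, 134343181 to 134354484), had 19.08, 29.5 and 107.1 CPM (lowest, median and highest) in KRAB, against 12.4, 15.1, 10.2 and 9.53 CPM in NI replicates 1 to 4. The groups did not overlap, and the highest value, in KRAB replicate 3, stood far above the other 5. The log2 fold change was 1.78 ± 0.61. The other members overlapped between the groups. Asna1, an ATPase that delivers tail-anchored proteins to the endoplasmic reticulum, averaged 75.1 ± 26.6 CPM in KRAB and 28.4 ± 12.4 CPM in NI (1.39 ± 0.44). Cnnm4, a magnesium transporter, averaged 104.9 ± 36.0 CPM in KRAB and 43.6 ± 27.99 CPM in NI (1.26 ± 0.48).

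Nefl and Tdpoz3 had the largest differences of the 10 higher genes, at low levels. Nefl, the light neurofilament chain of neurons, had 0.559, 12.1 and 33.7 CPM (lowest, median and highest) in KRAB, against 0, 3.32, 0 and 0.681 CPM in NI replicates 1 to 4. Only KRAB replicate 6 lay within the NI range, and the log2 fold change was 3.49 ± 1.002. Tdpoz3, one of a family of BTB domain genes expressed in the 2-cell embryo, had 1.65, 24.9 and 65.5 CPM (lowest, median and highest) in KRAB, against 0, 9.46, 1.86 and 4.43 CPM in NI replicates 1 to 4. KRAB replicates 3 and 5 lay within the NI range and the other 4 above it (log2 fold change 2.73 ± 1.04). Tdpoz3 shares 75.7% of its 31-base words with the gene model Gm4982, so its single value is uncertain.

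Among genes lower in KRAB, Zbtb26 had the smallest p of the comparison, 0.000462. It encodes a BTB zinc finger protein (chromosome 2, 37432168 to 37443135, minus strand). It had 1.06, 3.10 and 6.70 CPM (lowest, median and highest) in KRAB, against 9.94, 7.67, 17.7 and 41.0 CPM in NI replicates 1 to 4. It was the only one of these 10 genes whose groups did not overlap, with a log2 fold change of -2.44 ± 0.59, and -1.72 without NI replicate 4. Ctrl averaged 3.99 ± 1.62 CPM, close to the KRAB mean of 3.43 ± 1.94. Zbtb26 overlaps Zbtb6 on the same strand.

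In the remaining 9 the groups overlapped and the NI values were uneven. Over all 10 lower genes the highest NI value was in replicate 3 for 6 genes, in replicate 4 for 3, in replicate 1 for 1 and in replicate 2 for 0. Over the 231 genes lower in KRAB at an unadjusted p under 0.05, it was in replicate 3 for 92, in replicate 1 for 72, in replicate 4 for 60 and in replicate 2 for 7. For the 137 genes higher in KRAB, the lowest NI value was in replicate 1 for 93 genes and in replicate 2 for 5.

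Top1, DNA topoisomerase I (chromosome 2, 160645888 to 160722764), showed the split most plainly. It had 205.8, 330.6 and 465.3 CPM (lowest, median and highest) in KRAB, against 1926, 231.5, 1784 and 362.7 CPM in NI replicates 1 to 4. NI replicates 2 and 4 lay inside the KRAB range and NI replicates 1 and 3 far above it. The log2 fold change was -1.66 ± 0.53 with all libraries and 0.18 without NI replicates 1 and 3. Hells, a chromatin remodelling helicase needed for DNA methylation of repeats (chromosome 19, 38930915 to 38971051), had 52.4, 60.5 and 105.9 CPM (lowest, median and highest) in KRAB, against 246.1, 59.0, 271.1 and 144.5 CPM in NI replicates 1 to 4. NI replicate 2 lay inside the KRAB range and the other 3 above it. Its log2 fold change was -1.35 ± 0.43, and -0.55 without NI replicates 1 and 3.

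Zrsr2, a splicing factor that recognises the 3′ splice site of minor introns, had a like pattern. It had 14.2, 23.4 and 56.2 CPM (lowest, median and highest) in KRAB, against 126, 35.8, 164 and 33.5 CPM in NI replicates 1 to 4 (log2 fold change -1.70 ± 0.53, and -0.34 without NI replicates 1 and 3). Scarna13 and Snora47 are small RNAs that guide modification of other RNAs. Scarna13 had 0, 2.04 and 3.60 CPM (lowest, median and highest) in KRAB, against 14.1, 1.28, 60.6 and 0.511 CPM in NI replicates 1 to 4. Snora47 had 0, 2.75 and 6.70 CPM (lowest, median and highest) in KRAB, against 56.4, 2.30, 102.5 and 0.170 CPM in NI replicates 1 to 4. Both were high in NI replicates 1 and 3 alone. Their log2 fold changes were -3.38 ± 1.01 for Scarna13 and -3.79 ± 1.16 for Snora47, and 0.98 and 1.21 without those libraries. Scarna13 lies within the span of Snhg10 and Snora47 within that of Zbed3, on the same strand. Snora47 shares 0% of its words with other genes, and Scarna13 shares 14.3%, with Mir3069 alone. Whether reads from unspliced RNA of the longer genes were counted for them was not tested.

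Zfp345 and Zfp825, named as zinc finger proteins, rested on NI replicate 4. Zfp345 had 6.12, 19.5 and 28.2 CPM (lowest, median and highest) in KRAB, against 33.1, 23.3, 32.6 and 224.7 CPM in NI replicates 1 to 4. Zfp825 had 10.1, 12.7 and 42.5 CPM (lowest, median and highest) in KRAB, against 22.4, 63.4, 0.932 and 639.4 CPM in NI replicates 1 to 4. Without NI replicate 4 the log2 fold change was -0.64 for Zfp345, against -2.07 ± 0.60 with it, and -0.73 for Zfp825, against -3.37 ± 1.03 with it. Kbtbd8, an adaptor of a CUL3 ubiquitin ligase, had 233.5, 291.6 and 408.3 CPM (lowest, median and highest) in KRAB, against 407.7, 222.1, 2273 and 1004 CPM in NI replicates 1 to 4. Its log2 fold change was -1.66 ± 0.52, and -0.91 without NI replicate 3. Ccdc73, a coiled-coil protein gene, averaged 28.2 ± 12.8 CPM in KRAB and 78.5 ± 45.0 CPM in NI (-1.46 ± 0.47, and -0.90 without NI replicates 1 and 3). Ccdc73 overlaps Eif3m on the other strand and Nefl overlaps Nefm, and the counting is not stated to use strand.

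Genes singled out by the other 2-cell comparisons, KRAB against Ctrl and Ctrl against NI, were set beside these. They were chosen with earlier results of these data known. That Ctrl lies apart at them follows from that choice. The 3 comparisons share libraries, and 0 genes were called in either of the other 2. KRAB against Ctrl had 1838 genes at an unadjusted p under 0.05 (15.6%), with 3.86% of genes higher in KRAB and 11.7% lower. Ctrl against NI had 2756 (23.4%), with 14.8% higher in Ctrl and 8.59% lower. Kat7, a histone acetyltransferase, had 13.8, 30.7 and 47.8 CPM (lowest, median and highest) in KRAB, against 24.0, 25.3, 46.6 and 33.4 CPM in NI replicates 1 to 4. The groups overlapped throughout (log2 fold change -0.048 ± 0.48, interval -1.05 to 0.96, and 0.080 without NI replicates 1 and 3), while Ctrl averaged 131 ± 59.99 CPM. Elp2, of the Elongator complex, averaged 9.69 ± 4.96 CPM in KRAB, 11.4 ± 2.51 CPM in NI and 64.3 ± 49.8 CPM in Ctrl. Elac2, a tRNA-processing nuclease, averaged 10.6 ± 3.82 CPM in KRAB, 9.88 ± 7.82 CPM in NI and 73.5 ± 52.2 CPM in Ctrl. Mthfd1, a folate enzyme, averaged 7.85 ± 3.30 CPM in KRAB, 12.4 ± 1.98 CPM in NI and 31.6 ± 17.3 CPM in Ctrl. The log2 fold changes of KRAB against NI were -0.24 ± 0.64 for Elp2, 0.036 ± 0.67 for Elac2 and -0.66 ± 0.48 for Mthfd1, and those of KRAB against Ctrl were -2.72, -2.81 and -2.03. Ctrl libraries ranged from 8.37 to 144.8 CPM for Elp2, 9.57 to 139.7 CPM for Elac2 and 13.2 to 65.1 CPM for Mthfd1. The lowest lay within the KRAB range for Elp2 and Elac2, and above it for Mthfd1. Without NI replicates 1 and 3 Elac2 was at -0.63 against NI. Tmem92, a gene of the 2-cell embryo, averaged 310 ± 156 CPM in KRAB, 197 ± 54.5 CPM in NI and 85.9 ± 39.6 CPM in Ctrl (0.65 ± 0.49 against NI and 1.85 against Ctrl).

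The gene lists were described by counts and medians, and 0 members of any list were called. Over all 11799 genes, 48.9% had a positive log2 fold change of KRAB over NI, the median was -0.017 and the quartiles were -0.47 and 0.44. Without NI replicates 1 and 3 the median of all genes was 0.17. Medians close to 0, such as those of transcription, splicing, mitosis and lineage genes, changed sign as single libraries were left out. Members at an unadjusted p under 0.05, for which the background is 3.12%, numbered 0 to 3 in each list. There were 3 in the lists of maternal transcripts, oxidative phosphorylation and transcription. There were 2 in the lists of 2-cell genes, proteasome, translation, splicing, KRAB co-repression, replication and fibroblast genes. There was 1 in the lists of ribosome biogenesis, retrotransposon restriction, Polycomb, mitosis, stress, interferon, imprinted and cumulus genes, and the other lists had 0. In bulk RNA, fewer cells of a type and less RNA per cell cannot be told apart.

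**Figure D3:**
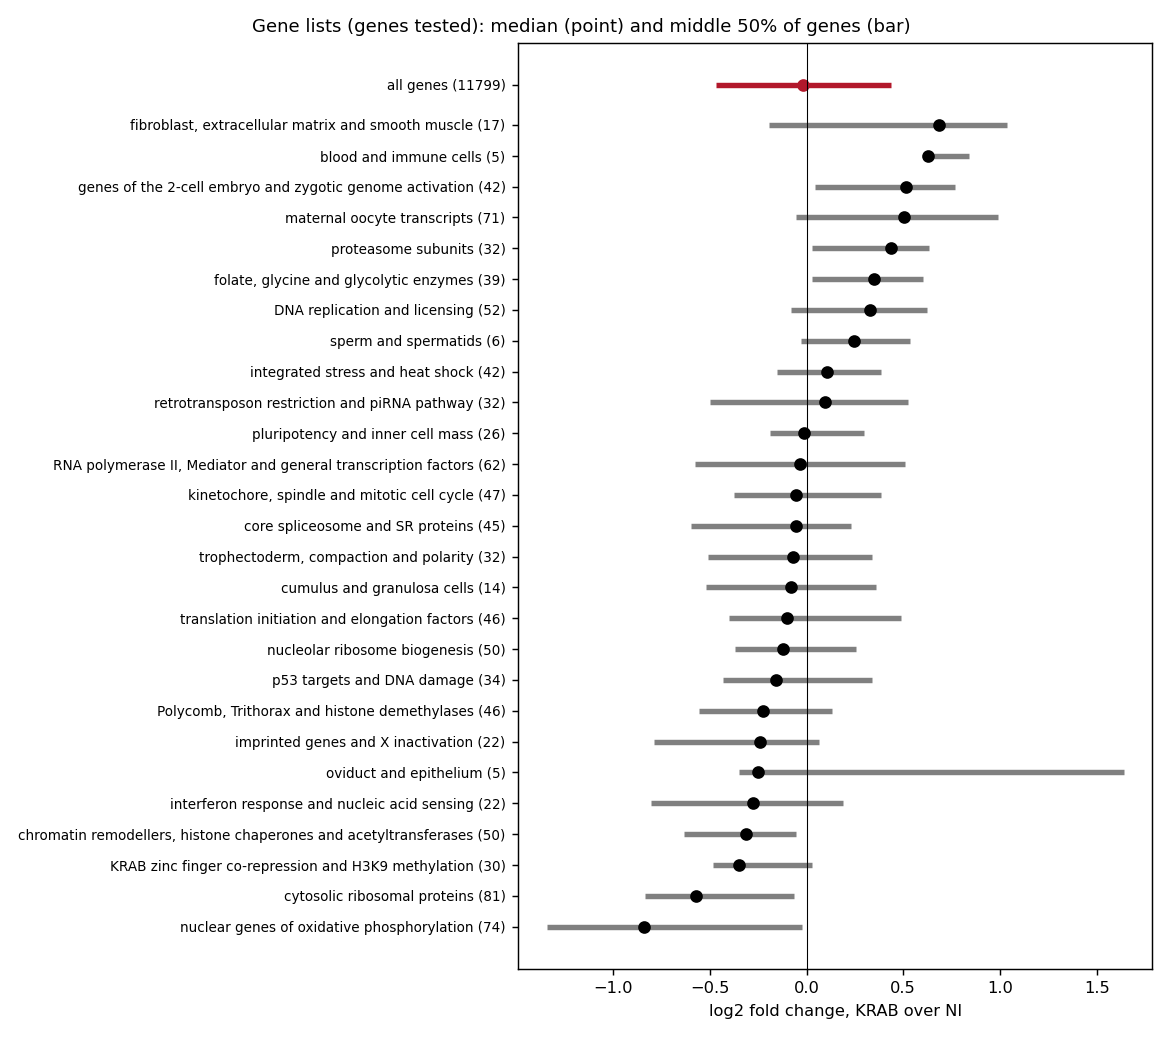
Median (point) and middle 50% (bar) of the log2 fold change of KRAB over NI for each of 27 gene lists, with the number of genes tested in brackets and all tested genes in red at the top. Oxidative phosphorylation has the lowest median, -0.84, and maternal and 2-cell genes lie near 0.5.

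Messages stored in the egg were mostly higher in KRAB pools without passing. Of 71 maternal oocyte transcripts tested, 50 had a positive log2 fold change, with a median of 0.51, and 3 had an unadjusted p under 0.05. The median ranged from 0.26 without NI replicate 1 to 0.74 without NI replicate 3, and was 0.81 without both. Obox5, an oocyte homeobox gene, had 653.8, 2205 and 5071 CPM (lowest, median and highest) in KRAB, against 152.5, 728.4, 1047 and 591.1 CPM in NI replicates 1 to 4. KRAB replicate 3 lay within the NI range (log2 fold change 2.00 ± 0.80). Btg4, an adaptor that brings deadenylase to maternal messages, had 460.3, 1998 and 5408 CPM (lowest, median and highest) in KRAB, against 206.3, 1045, 538.5 and 863.2 CPM in NI replicates 1 to 4. The groups overlapped (1.94 ± 0.91), with KRAB replicates 3 and 5 low. Tcl1b3, a member of the Tcl1 family of Akt co-activators, averaged 809 ± 359 CPM in KRAB and 268 ± 219 CPM in NI (1.59 ± 0.71). Padi6, a protein of the egg's cytoplasmic lattices, did not overlap between groups, at 67.3 ± 10.6 CPM in KRAB and 44.3 ± 6.65 CPM in NI, although its log2 fold change was only 0.60 ± 0.55. The most abundant members, Omt2b and Omt2a, had log2 fold changes of -0.087 ± 0.81 and -0.30 ± 0.77 with all libraries, and 1.92 and 1.74 without NI replicates 1 and 3. They share 40.2% of the words of Omt2b. Dppa3, which shields the maternal genome from demethylation, had 0.16 ± 0.79, and 1.53 without those 2 libraries.

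Genes of zygotic genome activation had the same sign. Their list holds families of similar genes, such as Zscan4, Tdpoz and Usp17l, so its members are not separate observations. Of 42 genes tested, 32 were positive with a median of 0.52, and 2 had an unadjusted p under 0.05, Tdpoz3 and the heat shock gene Hspa1a (1.78 ± 0.70). The list's median was 0.24 without KRAB replicate 1, 0.31 without KRAB replicate 4, 0.32 without NI replicate 1 and 0.29 without NI replicates 1 and 3. Zscan4c, from a gene cluster typical of 2-cell embryos, had 22.1, 75.7 and 274.2 CPM (lowest, median and highest) in KRAB, against 0, 107.9, 23.3 and 57.9 CPM in NI replicates 1 to 4. The groups overlapped (1.24 ± 0.95), and Zscan4 genes are near-identical copies whose single values are uncertain. Zfp352, a retrotransposed zinc finger gene of the 2-cell embryo, averaged 204 ± 137 CPM in KRAB and 171 ± 109 CPM in NI (0.25 ± 0.58, and -0.38 without NI replicates 1 and 3). Sp110, the most abundant of the list, averaged 716 ± 324 CPM in KRAB and 704 ± 174.5 CPM in NI (0.024 ± 0.47, and between -0.23 and 0.22 as libraries were left out). Markers of the egg and of the 2-cell embryo were thus present in both groups, with summed levels of the 2-cell list of 5052 to 8649 CPM of the plain library total in KRAB and 2675 to 8254 CPM in NI.

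The machinery that KRAB domains use was measured as well. Of 30 genes of KRAB zinc finger co-repression and H3K9 methylation, 9 were positive and 21 negative, the median was -0.35 and 2 had an unadjusted p under 0.05. Trim28, the KRAB co-repressor, had 31.7, 54.6 and 90.8 CPM (lowest, median and highest) in KRAB, against 78.7, 89.7, 50.3 and 81.5 CPM in NI replicates 1 to 4. The groups overlapped (-0.36 ± 0.56). Setdb1, the methyltransferase that Trim28 recruits, averaged 45.1 ± 6.61 CPM in KRAB and 46.8 ± 30.8 CPM in NI (-0.045 ± 0.44, and 0.34 without NI replicates 1 and 3). The 2 members of smallest p belong to the HUSH complex, which silences retrotransposons. Fam208a had 12.7, 17.96 and 22.7 CPM (lowest, median and highest) in KRAB, against 75.4, 20.7, 24.2 and 97.7 CPM in NI replicates 1 to 4. NI replicates 1 and 4 were the high ones (-1.63 ± 0.63). Mphosph8 had 59.5, 77.9 and 212.5 CPM (lowest, median and highest) in KRAB, against 405.2, 72.3, 335.4 and 108.9 CPM in NI replicates 1 to 4. NI replicates 1 and 3 lay above every KRAB library and the other two within the KRAB range. Its log2 fold change was -1.13 ± 0.53, and 0.20 without NI replicates 1 and 3. Pphln1, another HUSH member of the list, had the opposite sign with all libraries (0.41 ± 0.60). It had 94.3, 134.4 and 356.1 CPM (lowest, median and highest) in KRAB, against 109.4, 176.1, 50.3 and 238.3 CPM in NI replicates 1 to 4. The groups overlapped, and its log2 fold change without NI replicates 1 and 3 is not given here. The list's median was -0.10 without NI replicate 4, -0.22 without KRAB replicate 4 and -0.098 without NI replicates 1 and 3. Of 32 genes of retrotransposon restriction and the piRNA pathway, 18 were positive, with a median of 0.094, and it was -0.055 without KRAB replicate 1 and 0.14 without NI replicates 1 and 3.

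Chromatin remodellers, histone chaperones and acetyltransferases, 50 genes tested, were mostly lower in KRAB, with 40 negative and a median of -0.31, although 0 had an unadjusted p under 0.05. The mean log2(CPM + 1) of the list was 5.39 to 5.56 in 5 KRAB libraries and 5.75 in KRAB replicate 3, against 5.81, 5.69, 5.74 and 5.67 in NI replicates 1 to 4. KRAB replicate 3 alone lay within the NI range. Ctrl libraries spanned 5.26 to 6.02, beyond both groups on either side. Nap1l1, a histone chaperone and the most abundant member, averaged 315 ± 61.4 CPM in KRAB and 443 ± 104 CPM in NI (-0.49 ± 0.38). Smarca5, the ISWI remodelling ATPase, averaged 255 ± 123 CPM in KRAB and 351 ± 152 CPM in NI (-0.46 ± 0.64). Smarcb1, a core BAF subunit, went the other way without overlap, at 51.5 ± 20.1 CPM in KRAB and 23.1 ± 7.01 CPM in NI (1.15 ± 0.59). Without NI replicates 1 and 3 the list's median was -0.035. Of 46 Polycomb, Trithorax and histone demethylase genes, 30 were negative, with a median of -0.22. It was -0.11 without NI replicate 4 and -0.021 without NI replicates 1 and 3.

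**Figure D4:**
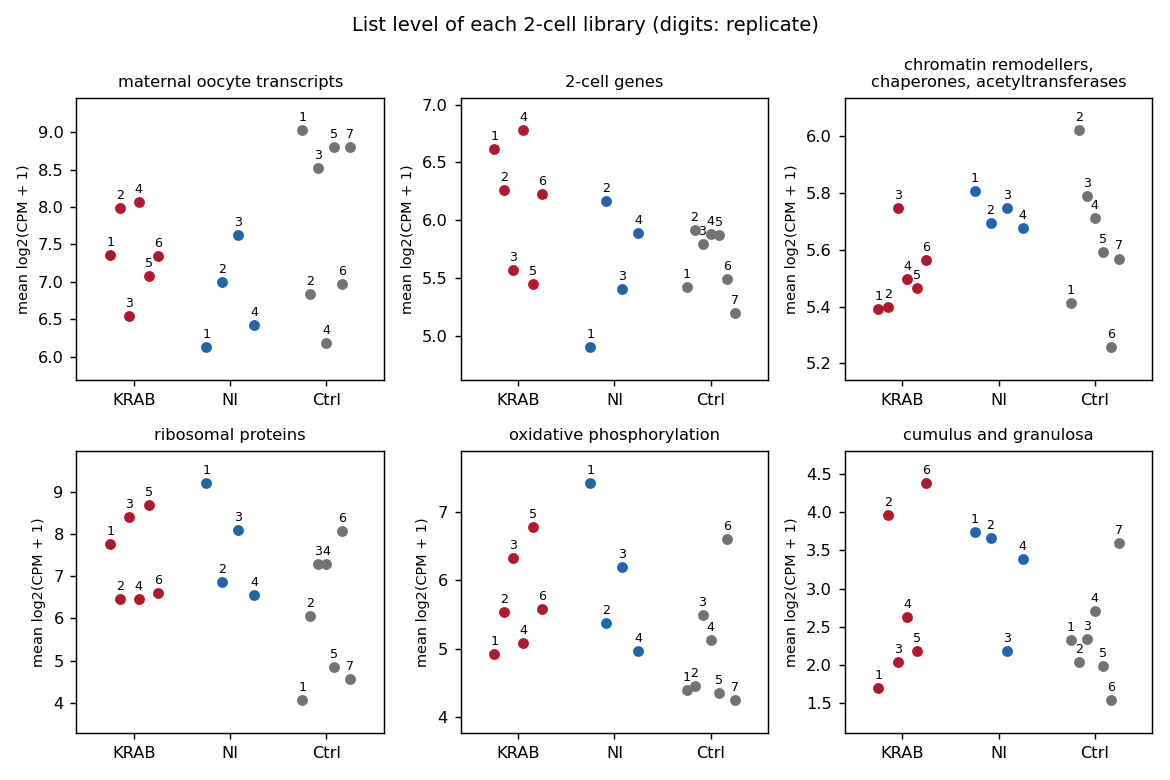
Mean log2(CPM + 1) of 6 gene lists (y axis, different scale in each panel) in each 2-cell library, with KRAB left, NI next and Ctrl right, and the replicate number above each point. In the ribosomal protein panel NI 1 and NI 3 lie with KRAB 1, 3 and 5, and NI 2 and NI 4 lie with KRAB 2, 4 and 6.

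Genes of energy supply and protein synthesis spread widely within both groups. Of 74 nuclear genes of oxidative phosphorylation tested, 57 were negative, the median was -0.84 and 3 had an unadjusted p under 0.05, all lower. Cox6c, a subunit of cytochrome c oxidase, had 124.9, 199.2 and 342.9 CPM (lowest, median and highest) in KRAB, against 1438, 156.7, 951.3 and 91.6 CPM in NI replicates 1 to 4. NI replicates 1 and 3 lay above every KRAB library and NI replicate 4 below. Ndufa3, of complex I, had 1.06, 7.29 and 11.97 CPM (lowest, median and highest) in KRAB, against 127.6, 8.43, 21.4 and 2.72 CPM in NI replicates 1 to 4. Atp5l, of ATP synthase, had 21.3, 30.4 and 83.7 CPM (lowest, median and highest) in KRAB, against 338.9, 22.7, 150.9 and 11.1 CPM in NI replicates 1 to 4. For both, NI replicates 1 and 3 lay above every KRAB library and the other two did not. The log2 fold changes with all libraries were -1.57 for Cox6c, -2.52 ± 0.92 for Ndufa3 and -1.78 ± 0.80 for Atp5l, and without NI replicates 1 and 3 they were 0.84, 0.30 and 1.17. Atp5c1, the gamma subunit of ATP synthase, lay higher without overlap, at 239 ± 55.1 CPM in KRAB and 127 ± 63.6 CPM in NI (0.91 ± 0.45). The list's median was 0.21 without NI replicate 1 and 0.95 without NI replicates 1 and 3.

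Of 81 cytosolic ribosomal protein genes, 64 were negative, with a median of -0.57, and 0 had an unadjusted p under 0.05. Their mean log2(CPM + 1) was 7.77, 8.40 and 8.69 in KRAB replicates 1, 3 and 5, and 6.45, 6.47 and 6.60 in KRAB replicates 2, 4 and 6. In NI it was 9.20 and 8.10 in replicates 1 and 3, and 6.86 and 6.55 in replicates 2 and 4. Both groups thus held libraries high and low in these messages, and the median was 0.37 without NI replicate 1 and 1.12 without NI replicates 1 and 3. Rpl41, the most abundant member, had 312.6, 860.0 and 2706 CPM (lowest, median and highest) in KRAB, against 5970, 664.2, 1754 and 406.6 CPM in NI replicates 1 to 4 (-0.75 ± 1.02, and 1.28 without NI replicates 1 and 3). Nucleolar ribosome biogenesis had 21 of 50 genes positive and a median of -0.12, and it was 0.058 without NI replicate 1, 0.018 without NI replicate 4 and -0.026 without NI replicates 1 and 3. Npm1, nucleophosmin, averaged 1250 ± 498 CPM in KRAB and 1543 ± 541 CPM in NI (-0.30 ± 0.51, and 0.014 without NI replicates 1 and 3). Translation factors had 21 of 46 positive and a median of -0.10, and 0.22 without NI replicate 4. Eif5a, an elongation factor that carries hypusine, had 801.8, 1343 and 1771 CPM (lowest, median and highest) in KRAB, against 190.6, 1027, 341.9 and 637.2 CPM in NI replicates 1 to 4. Only KRAB replicate 5 lay within the NI range (1.27 ± 0.54).

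The proteasome, which degrades maternal proteins at this stage, had 24 of 32 subunit genes positive and a median of 0.44, and 2 had an unadjusted p under 0.05. The median was 0.13 without NI replicate 3, 0.21 without KRAB replicate 5, 0.23 without NI replicate 1 and 0.27 without KRAB replicate 3. Psma5, a core alpha subunit, averaged 131 ± 84.8 CPM in KRAB and 49.1 ± 25.8 CPM in NI (1.41 ± 0.54), and Psmd8, of the regulatory lid, 117 ± 56.04 CPM in KRAB and 54.9 ± 15.8 CPM in NI (1.09 ± 0.44). Folate, glycine and glycolytic enzymes had 29 of 39 positive and a median of 0.35. It ranged from 0.10 without NI replicate 3 to 0.66 without NI replicate 2, and was -0.13 without NI replicates 1 and 3. Ldhb, lactate dehydrogenase B, averaged 1202 ± 504 CPM in KRAB and 619 ± 321 CPM in NI (0.96 ± 0.73).

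Transcription and splicing genes were split evenly. Of 62 genes of RNA polymerase II, Mediator and the general factors, 31 were positive and 31 negative, with a median of -0.036, and 0.037 without NI replicates 1 and 3. Polr2c, the third subunit of the polymerase, had 1165, 1313 and 2405 CPM (lowest, median and highest) in KRAB, against 246.9, 746.5, 992.3 and 489.6 CPM in NI replicates 1 to 4. The groups did not overlap (1.39 ± 0.62). Polr2a, the catalytic subunit, went the other way, at 6.84 ± 4.09 CPM in KRAB and 20.99 ± 8.95 CPM in NI (-1.60 ± 0.66). Of 45 splicing genes 20 were positive, with a median of -0.056, and it was 0.11 without NI replicate 4 and 0.043 without NI replicates 1 and 3. Srsf2, an SR protein, lay lower without overlap, at 55.3 ± 20.05 CPM in KRAB and 118 ± 64.7 CPM in NI (-1.09 ± 0.64).

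In the cell cycle, 33 of 52 DNA replication genes were positive, with a median of 0.33. It was 0.11 without NI replicate 3, 0.17 without NI replicate 1 and 0.19 without KRAB replicate 1. Pold3, a subunit of DNA polymerase delta, did not overlap between groups, at 187 ± 45.8 CPM in KRAB and 101.5 ± 21.6 CPM in NI (0.88 ± 0.48). Gmnn, geminin, the inhibitor of origin licensing, averaged 813 ± 233 CPM in KRAB and 525 ± 131 CPM in NI (0.63 ± 0.49). Mitotic genes had 23 of 47 positive and a median of -0.053, and it was 0.12 without NI replicate 4 and 0.072 without NI replicates 1 and 3. Ccnb1, cyclin B1, averaged 1512 ± 691 CPM in KRAB and 932 ± 522 CPM in NI (0.70 ± 0.65). For p53 targets and DNA damage genes 12 of 34 were positive, with a median of -0.16, and 0.017 without NI replicate 4. For stress and heat shock genes 27 of 42 were positive, with a median of 0.11, and it was -0.12 without KRAB replicate 1 and -0.041 without NI replicate 3, and again -0.12 without NI replicates 1 and 3. Interferon and nucleic acid sensing genes had 7 of 22 positive and a median of -0.27, and it was -0.0028 without NI replicate 1 and 0.27 without NI replicates 1 and 3. Ifitm3, an interferon-induced membrane protein, averaged 167 ± 82.3 CPM in KRAB and 386 ± 346.5 CPM in NI (-1.21 ± 0.76, and 0.80 without NI replicates 1 and 3).

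Lineage genes, most of which act after the 2-cell stage, were level in the median. Of 26 pluripotency genes 12 were positive, with a median of -0.013 (-0.021 without NI replicates 1 and 3), and of 32 genes of trophectoderm, compaction and polarity 15, with a median of -0.071. Nanog, a pluripotency factor, had 456.1, 813.2 and 4390.3 CPM (lowest, median and highest) in KRAB, against 2618, 778.7, 3155 and 275.4 CPM in NI replicates 1 to 4. The libraries spread widely in both groups. The log2 fold change was -0.30 ± 1.04, and 1.41 without NI replicates 1 and 3. Imprinted genes and genes of X inactivation had 8 of 22 positive and a median of -0.24, and it was -0.39 without NI replicate 3 and -0.062 without NI replicates 1 and 3. Plagl1, an imprinted zinc finger gene, averaged 1.70 ± 2.16 CPM in KRAB and 7.94 ± 6.78 CPM in NI (-2.16 ± 0.83).

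Markers of cells other than the embryo were uneven between pools of both groups. The 35 cumulus and granulosa genes summed to 95.7 to 719 CPM of the plain library total in KRAB and 127.8 to 408 CPM in NI, and 4 of them were at 0 in all 10 libraries. The sums were 77.9 to 530 in KRAB and 108.2 to 350.1 in NI for fibroblast and smooth muscle genes (4 of 36 at 0), and 147 to 501 in KRAB and 85.7 to 386 in NI for blood and immune genes (11 of 25 at 0). For sperm genes they were 89.5 to 196 in KRAB and 76.0 to 141 in NI (7 of 26 at 0). For oviduct and epithelial genes they were 157 to 4418 in KRAB and 58.1 to 1584 in NI (1 of 21 at 0). In KRAB the highest oviduct sums came with Spp1, osteopontin, a secreted glycoprotein. Spp1 had 0, 56.2 and 3045 CPM (lowest, median and highest) in KRAB, against 0, 11.8, 0.932 and 167.1 CPM in NI replicates 1 to 4. KRAB replicate 6 with 3045 CPM and KRAB replicate 2 with 1255 CPM stood above the rest, and the same libraries held most Hsd3b1, a steroid dehydrogenase of granulosa cells (187.7 and 224.8 CPM). Clu, clusterin, a secreted chaperone of the same oviduct list, went the other way. It had 4.32, 42.5 and 212.8 CPM (lowest, median and highest) in KRAB, against 236.2, 868.7, 0 and 363.0 CPM in NI replicates 1 to 4 (-2.13 ± 1.23). NI replicates 1, 2 and 4 lay above every KRAB library and NI replicate 3 below. In the cumulus list, Hsd3b1 had a log2 fold change of 1.74 ± 1.74. Col4a2, a collagen chain and that list's 1 member at an unadjusted p under 0.05, was lower in KRAB. It averaged 3.28 ± 2.84 CPM in KRAB and 18.8 ± 19.7 CPM in NI (-2.41 ± 0.99), with the highest value, 47.2 CPM, in NI replicate 1. Members of the fibroblast list also differed in sign. Col6a3, a collagen chain, averaged 7.40 ± 3.07 CPM in KRAB and 2.91 ± 0.754 CPM in NI (1.39 ± 0.52), Mmp2, a matrix protease, 80.5 ± 47.2 CPM in KRAB and 39.2 ± 27.1 CPM in NI (1.04 ± 0.66), and Cnn1, calponin of smooth muscle, 52.1 ± 22.3 CPM in KRAB and 25.6 ± 11.7 CPM in NI (1.02 ± 0.53). Sfrp4, a secreted Wnt antagonist of that list, averaged 2.30 ± 3.35 CPM in KRAB and 13.3 ± 11.9 CPM in NI (-2.46 ± 1.14), and Sfrp2 averaged 3.93 ± 6.48 CPM in KRAB and 16.9 ± 19.8 CPM in NI (-1.999 ± 1.11). Of the tested members, 7 of 14 cumulus genes, 11 of 17 fibroblast genes, 2 of 5 oviduct genes, 5 of 5 blood genes and 4 of 6 sperm genes were positive. The fibroblast median was 0.68, and 0.17 without KRAB replicate 6 and 0.16 without NI replicates 1 and 3. The oviduct median, over 5 genes, was -0.25, and 1.18 without NI replicates 1 and 3. The sperm median, over 6 genes, was 0.25, and it was -0.034 without KRAB replicate 5 and 1.23 without NI replicates 1 and 3. Their part in the other differences was not tested.

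Transcript length moved with the direction of the difference. Among genes matched to the annotation, the median log2 fold change in 5 nearly equal classes of rising transcript length was 0.18, 0.086, 0.027, -0.072 and -0.20. Genes higher in KRAB at an unadjusted p under 0.05 had a median length of 2000 bases and those lower 4012 bases, against 3283 bases over all genes. The median deviation of the shortest class minus that of the longest, on the log2(CPM + 1) scale, was highest in KRAB replicates 5 (0.65) and 3 (0.41) and lowest in NI replicate 4 (-0.54), KRAB replicate 6 (-0.35) and NI replicate 3 (-0.33). The groups overlapped in this measure, and its part in the differences was not tested.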

How the data were processed

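The deposited table holds expected counts per gene symbol. The submitters' processing notes list Bowtie2, RSEM and the build mm10. The sources used here give no versions, annotation or strand setting. RSEM apportions ambiguous reads among the genes they match. Unused per-sample columns numbered 0. After rounding the expected counts to integers, tests were run in edgeR 4.0.16 (limma 3.58.1, R 4.3.3). All 17 libraries of the 2-cell stage entered a quasi-likelihood fit with TMM scaling, the robust option, filterByExpr (minimum count 10, minimum total 15) and Benjamini-Hochberg adjustment at 0.05. Groups came from the labels, and replicate numbers, given in accession order, only name libraries. The lowest chi-square per degree of freedom between replicates was 10.9, so no library was taken for a duplicate. Alternatives were other scalings and filters, DESeq2 1.42.0, limma-voom and leaving out libraries. The fit was also run on simulated data. How many changes it recovered at the spread of these data is not given here.

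The comparison and the 27 gene lists were chosen with earlier results of these data known. Named genes follow a rule: since no gene was called, the 10 smallest p-values in each direction with a mean of at least 10 CPM and a symbol other than a gene-model name, the 2 most abundant members of each list, and 7 genes from the other 2-cell comparisons. Other list members were picked after their values were seen, by an unadjusted p under 0.05, by groups that did not overlap, or as known members. Cdca8, Smc6 and Arid1a were picked from the precisely measured genes. Not every gene the rule names is printed. Coordinates come from the GENCODE vM21 annotation of GRCm38 (mm10). Reads carry no molecular identifiers. The intervals rest on the spread between pools, in which amplification cannot be told apart from other sources.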

Additional observations from a re-analysis of the deposited data

Results flagged for a closer look

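Within groups of 4 or 6 libraries, 222 sets of values were screened for a library far from the others by Dixon's criterion, and 9 were picked out, while chance gives about 1 in 20. On the log2(CPM + 1) scale, KRAB replicate 3 stood high at Slc30a2 (6.76) and at Mdm4, a p53 regulator (11.23). KRAB replicate 1 stood high at Obox3, an oocyte homeobox gene (10.66). NI replicate 4 stood high at Zfp345 (7.82) and at Brca2, a DNA repair gene (8.98). NI replicate 1 stood high at Psmb1, a proteasome subunit (8.10), and NI replicate 3 stood low at Epcam, an epithelial adhesion gene (5.51). For list means on the same scale, KRAB replicate 3 stood high in the list of KRAB co-repression and H3K9 methylation (5.87), and NI replicate 3 stood low in nucleolar ribosome biogenesis (5.77).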

How the results depend on the processing

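Every alternative called 0 genes in KRAB against NI at an adjusted p under 0.05. Genes at an unadjusted p under 0.05 numbered 697 with DESeq2 (260 higher in KRAB and 437 lower). They numbered 822 without the filter on low counts (328 and 494). On the KRAB and NI libraries only they numbered 445 with edgeR (203 and 242) and 784 with DESeq2 (356 and 428). With limma-voom and quality weights they numbered 914 (564 and 350), and 977 on the KRAB and NI libraries only (653 and 324). Without weights limma-voom gave 222 (130 and 92). With limma-voom more genes were thus higher than lower in KRAB, the reverse of the main fit. The number of genes tested differed between these settings. It was 19414 with DESeq2, 18443 with DESeq2 on the KRAB and NI libraries only and 19443 without the filter. It was 11799 in the main fit and with limma-voom, and 10590 with edgeR or limma-voom on the KRAB and NI libraries only. Leaving out 1 library gave 234 to 623 genes at an unadjusted p under 0.05 (57 to 248 higher, 153 to 375 lower). The median of all genes ranged from -0.070 to 0.073 when 1 library was left out. List medians then ranged from -0.055 to 0.19 for retrotransposon restriction, -1.15 to 0.21 for oxidative phosphorylation, -0.24 to 0.22 for translation, -0.16 to 0.19 for transcription, -0.39 to -0.10 for KRAB co-repression and -0.12 to 0.12 for mitosis. Without NI replicates 1 and 3, chosen after seeing the data, the medians were 0.17 for all genes, 1.12 for ribosomal proteins, 0.95 for oxidative phosphorylation, -0.10 for KRAB co-repression, -0.035 for chromatin remodellers, -0.021 for Polycomb genes, 0.27 for interferon genes and 1.23 for sperm genes, and the log2 fold changes were 0.98 for Scarna13, 1.21 for Snora47 and 0.18 for Top1. With limma-voom and quality weights they were 0.022 for Scarna13 and 0.45 for Snora47, and the replication median was 0.080, or 0.062 on the KRAB and NI libraries only, where that of KRAB co-repression was -0.16. Without weights the median of chromatin remodellers was -0.19. Genes detected differed by 34.2 at 5 counts and by 56.6 after thinning to the smallest total, KRAB minus NI, against -8.42 at 1 count. The cause was not tested.

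No paired analysis was possible because the labels carry no replicate numbers that join KRAB and NI libraries. With 4 NI pools and a biological coefficient of variation of 0.738, the median 95% interval of a log2 fold change extended 1.42 to either side. For a gene with that width, a smaller estimate left 0 inside the interval. The interval takes no account of the number of genes tested. Larger estimates, such as -3.79 for Snora47 and 3.49 for Nefl, were not called either.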
